A study of Mus musculus with 16 samples.

Results

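Plasminogen activation in the flexor tendon was examined through 7 genes, 7 of the 49568 gene rows counted: the activators Plau and Plat, the urokinase receptor Plaur, and the serpins Serpine2, Serpinb2, Serpinf1 and Serping1. They were taken by symbol, and Plaur was selected on its measured values, in part because its injury difference was larger in MRL than in C57 tendons. Values of Plaur are therefore given as a description, and the tests of differences between groups cover the other 6 genes. Tendons came from male C57BL/6J (C57) mice and male MRL/MpJ (MRL) mice, an inbred strain known for scar-poor healing, aged 9 to 11 weeks at surgery, with 4 libraries in each of 4 groups. Injured tendons were collected 7 days after a cut through about 50% of the width of the deep digital flexor tendon in digit 3 of the hind paw (7 dpi), and the control groups of each strain had no injury. The labels name no transgene, engineered allele or drug treatment for any group. By the study's methods, operated mice had a sutured skin incision, ketamine and xylazine as anaesthetics, and buprenorphine against pain. No sham operation is described for the controls, so the surgery and these drugs go with the injury. RNA came from single tendons, and the tissue around the tendon and its sheath had not been removed, so a lower level in these bulk samples may mean fewer cells of a type or less RNA per cell, which cannot be told apart.

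Plasminogen is a liver protein that circulates as an inactive precursor and is cut to plasmin by urokinase (encoded by Plau) or by tissue-type activator (encoded by Plat). Plasmin dissolves fibrin, the first matrix of a wound, and can activate matrix metalloproteinases and latent TGF-β. Urokinase is held on the surface of leukocytes and migrating cells by its receptor, encoded by Plaur, while serpins, which trap serine proteases in a covalent complex, restrain the activators. Serpine2 encodes protease nexin, an inhibitor of thrombin and of both activators. Serpinb2 encodes an inhibitor of urokinase made by keratinocytes and stimulated macrophages. Serping1 encodes the C1 inhibitor, which acts mainly on complement and contact proteases, and Serpinf1 encodes pigment epithelium-derived factor, a serpin that does not inhibit proteases and restrains vessel growth.

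The 7 genes lie apart in the mouse genome (GRCm38, GENCODE M21 gene bounds). Plau spans chr14:20836660-20843385 on the plus strand, Plaur spans chr7:24462484-24475968 on the plus strand and Plat spans chr8:22757727-22782844 on the plus strand. Serpine2 spans chr1:79794197-79861180 on the minus strand and Serpinb2 spans chr1:107511423-107535478 on the plus strand, where Serpinb10 is annotated within the same bounds on the same strand, so reads of this pair could be split by the counting. Serpinf1 spans chr11:75409769-75422701 on the minus strand and Serping1 spans chr2:84765387-84775444 on the minus strand, and no other annotated gene overlapped them or the remaining 4.

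The RefSeq promoter table (GRCm38.p6) held 4 of the 7 genes. The 250 bases before the transcription start are printed 5′ to 3′ for all 4. Mean levels of Plaur and Serpine2 were higher after injury in each strain, and those of Serpinf1 were lower in each. Serpinb2 was high in 2 uninjured C57 libraries, and its log2 fold change after injury in MRL was -0.12 (SE 0.70). For Serpinb2 the table has 2 starts, and the window of the upstream one is printed. Capitals mark matches on either strand to TGANTCA (the AP-1 motif), GGGCGG (the GC box), CCAAT (the CCAAT box) or TATAAA (the TATA box), and matches to the same motif may overlap.
Plaur, chr7:24462233-24462482, plus strand: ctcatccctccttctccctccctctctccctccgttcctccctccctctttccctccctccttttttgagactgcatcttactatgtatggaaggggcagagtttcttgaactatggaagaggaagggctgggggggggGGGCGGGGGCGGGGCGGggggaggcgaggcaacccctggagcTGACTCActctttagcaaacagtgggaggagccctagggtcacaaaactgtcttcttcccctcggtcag
Serpine2, chr1:79858666-79858915, minus strand: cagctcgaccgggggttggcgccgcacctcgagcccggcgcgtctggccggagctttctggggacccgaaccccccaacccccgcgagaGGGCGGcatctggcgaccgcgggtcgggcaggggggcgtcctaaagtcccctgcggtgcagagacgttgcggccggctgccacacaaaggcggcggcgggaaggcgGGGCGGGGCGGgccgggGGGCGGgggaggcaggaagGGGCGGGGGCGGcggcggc
Serpinf1, chr11:75422624-75422873, minus strand: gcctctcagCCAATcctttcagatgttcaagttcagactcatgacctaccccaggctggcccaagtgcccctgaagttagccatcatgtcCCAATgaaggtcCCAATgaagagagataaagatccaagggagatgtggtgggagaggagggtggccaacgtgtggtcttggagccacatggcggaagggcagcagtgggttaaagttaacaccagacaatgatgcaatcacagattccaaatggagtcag
Serpinb2, chr1:107511173-107511422, plus strand: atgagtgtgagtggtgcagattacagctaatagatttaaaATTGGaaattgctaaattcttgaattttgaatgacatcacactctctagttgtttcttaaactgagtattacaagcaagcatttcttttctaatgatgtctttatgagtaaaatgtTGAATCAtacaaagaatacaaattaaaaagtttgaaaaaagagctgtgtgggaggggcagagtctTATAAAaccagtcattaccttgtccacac
The Plaur promoter held 1 AP-1 match that began 69 bases before the start and 3 GC boxes. In Serpine2, 6 GC boxes and none of the other motifs were found in a window of 78.8% G and C, against 59.6% in Plaur and 51.6% in Serpinf1. The Serpinf1 window held 3 CCAAT matches and nothing else. The Serpinb2 window, at 32.4% G and C, held 1 AP-1 match that began 94 bases before the start, 1 CCAAT match and 1 TATA match that began 29 bases before it. Of all 32851 promoter windows of this length, 6.75% held the AP-1 motif, 32.7% a GC box, 33.8% a CCAAT match and 12.4% a TATA match. These matches describe the letters and do not show binding.

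Libraries held 12552424 to 23741648 counts, and the injured MRL libraries were the deepest as a group (18524170 to 23741648). The tenocyte markers, 8 of 8 detected in 15 libraries and 7 of 8 in the other, summed to 13520 to 51530 CPM (counts scaled to library size with TMM factors) across all libraries. There were 3 libraries that stood apart. C57 uninjured replicate 4 had 98400 CPM on 12 epidermal markers against at most 814 CPM elsewhere, and it correlated by rank with the other uninjured C57 libraries at 0.799 to 0.834 only. The injured C57 library labelled BI-181 had 58920 CPM on 12 skeletal muscle markers, against 1775 CPM in BI-183 and at most 20.4 CPM in the others. The library labelled MRL uninjured replicate 4 correlated by rank with uninjured C57 replicates 1, 2 and 3 at 0.951 to 0.964, and with its own group at 0.932 to 0.941. Its label was kept, and whether its strain is as labelled was not tested. Values without them are given beside the results that they move.

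Per kilobase of exon, Serpinf1, Serping1 and Serpine2 were the most abundant of the 7 in every group and Plau was the least (RPKM, CPM divided by the length in kilobases of all annotated exons merged). That length was 6241 bases for Plat and 8287 for Serpine2, against 2617 for Plaur and 2359 for Serpinf1, and the order of genes depends on it. In uninjured C57 tendons Serpinf1 stood at 667.5 ± 81.2 RPKM (SD, n = 4), Serping1 at 281 ± 65.5 RPKM and Serpine2 at 155 ± 64.8 RPKM. Plat followed at 66.0 ± 27.9 RPKM and Plaur at 17.7 ± 8.72 RPKM, while Plau stood at 0.264 ± 0.272 RPKM. The mean levels of Serpinf1, Serping1 and Serpine2 were above those of both activators in every group, while Serpinb2 stood at 31.5 ± 49.1 RPKM here and 1.51 ± 1.05 to 2.29 ± 2.47 RPKM in the other 3 groups. In the injured groups Plaur reached 34.1 ± 3.56 RPKM in C57 and 51.0 ± 18.2 RPKM in MRL, close to Plat at 46.9 ± 12.95 and 57.6 ± 20.7 RPKM. In CPM, mean Plat stayed above mean Plaur, at 292 against 89.1 in injured C57 and 360 against 134 in injured MRL tendons. The order of Serpinf1, Serping1 and Serpine2 differed between groups, and their ranges overlapped in injured C57 tendons. In injured MRL tendons the lowest Serpinf1 value (382 RPKM) was above the highest Serpine2 value (367 RPKM). By CPM the order of means there was the other way, at 1506 for Serpinf1 and 2459 for Serpine2.

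**Figure D1:**
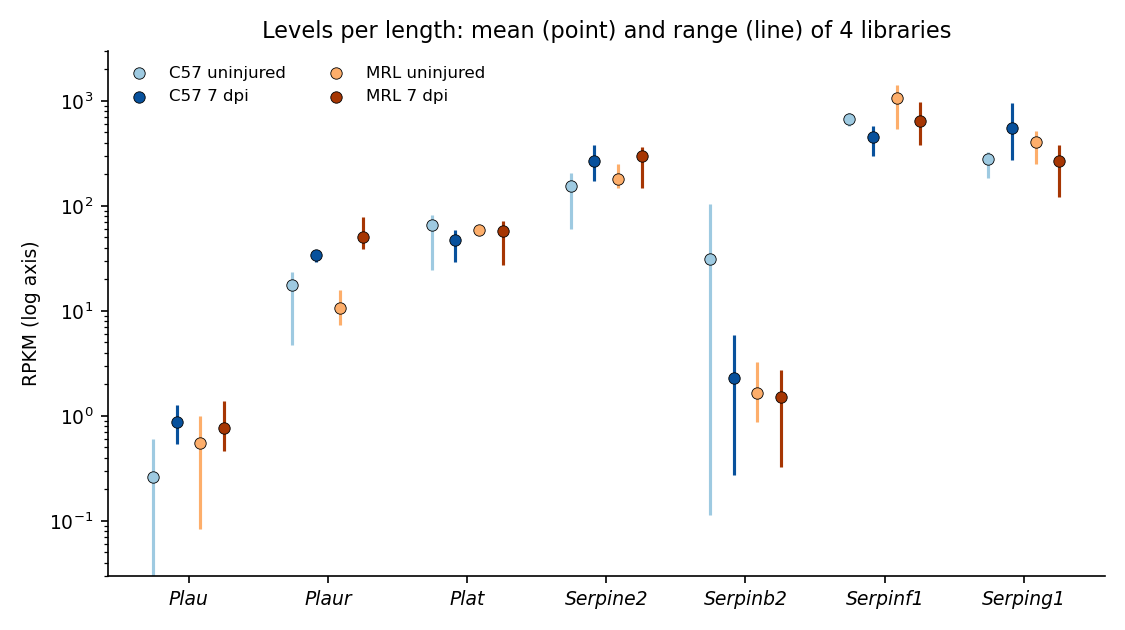
Level per length (RPKM, log axis) of each gene in the 4 groups, with points for the mean and lines for the range of 4 libraries; the line of Plau in uninjured C57 tendons runs to 0 and is cut by the axis. Serpinf1, Serping1 and Serpine2 sat above 100 RPKM on average in every group and Plau below 1 RPKM.

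Of the tested genes, 0 of 6 were called different after injury in C57 tendons (edgeR quasi-likelihood, adjusted p under 0.05 and a fold over 2), where 1.07% of 14424 tested genes were called. In MRL tendons 0 of 6 were called, against 7.41% of 14274 tested genes. DESeq2 also called 0 of 6 in each strain, beside 5.32% of all genes in C57 and 11% in MRL. At an unadjusted p under 0.05 there were 2 of 6 in C57 (Serpinf1 and Serping1) and 2 of 6 in MRL (Serpine2 and Serpinf1), where 15.3% and 28.3% of all tested genes passed that threshold. The median log2 fold change of the 6 was 0.09 in C57 and -0.09 in MRL, beside -0.05 and -0.03 over all tested genes. Each strain's injured libraries were compared with its own uninjured ones, which also enter the comparison of uninjured strains.

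**Figure D2:**
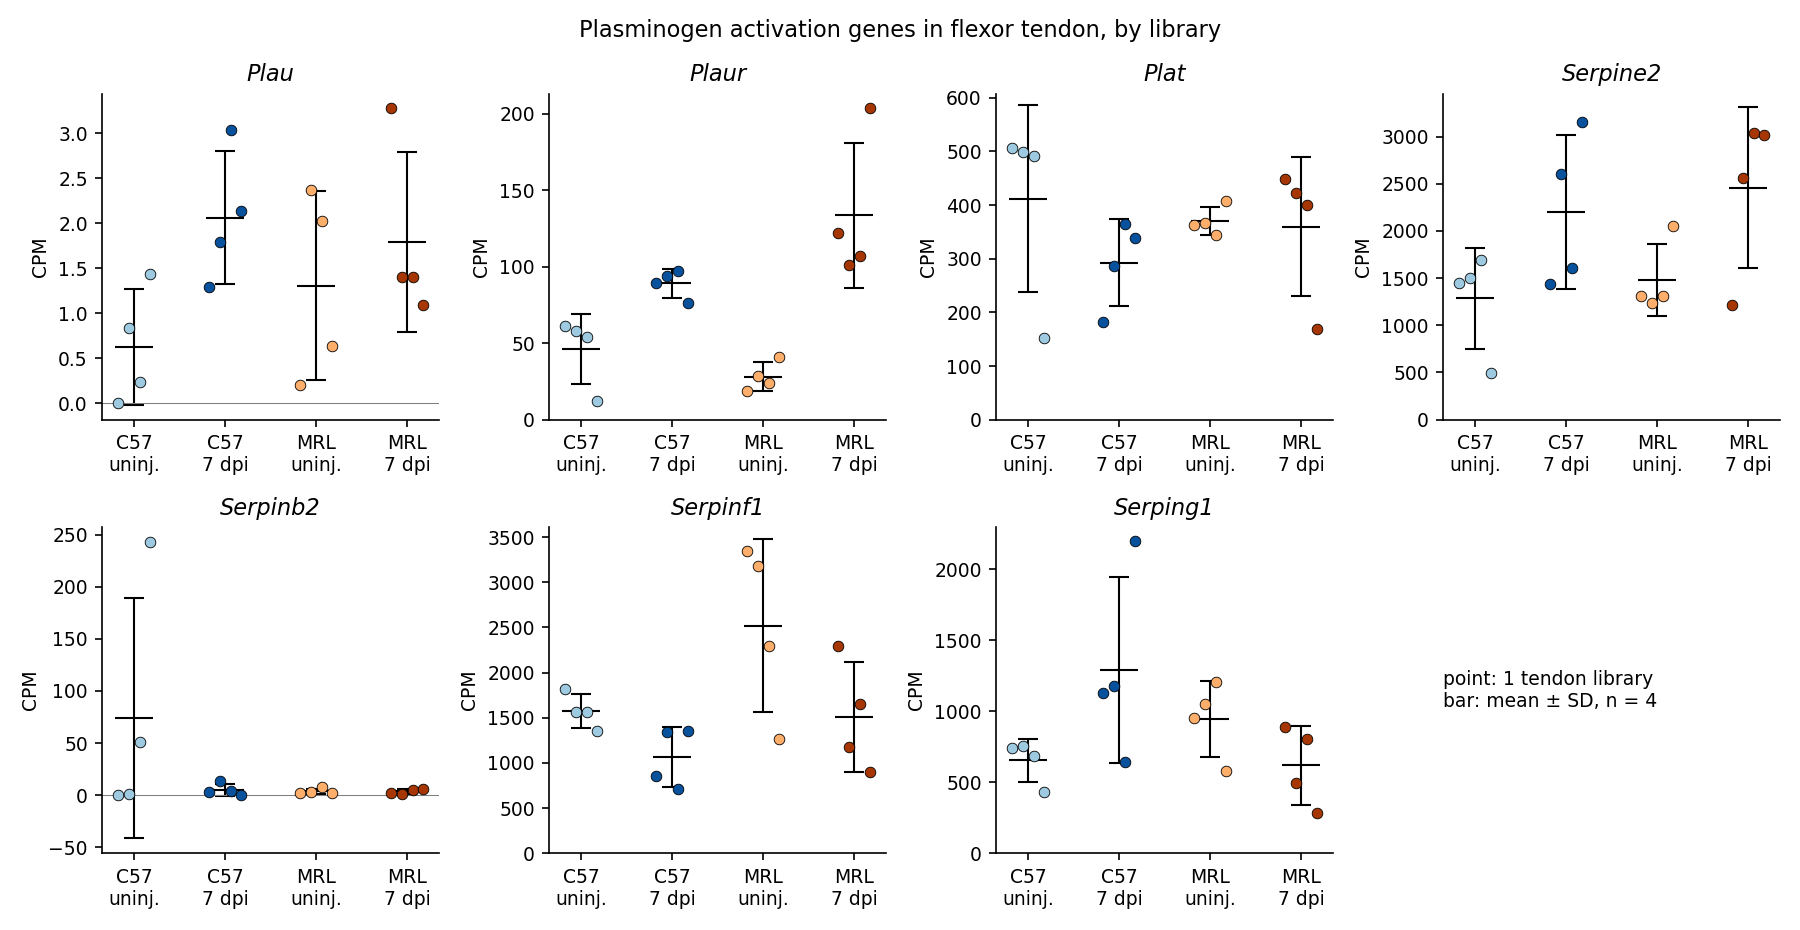
CPM of each gene in every library (points), with the mean and SD of 4 libraries per group as bars; the axes are linear and differ between panels. Every injured library lay above every uninjured one for Plaur in both strains, and 1 uninjured C57 library set the scale of the Serpinb2 panel.

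Plaur, the receptor, was chosen for its injury difference, so its separation of injured from uninjured libraries is given as a description only. Over all tested genes 4.58% had no overlap between injury states in both strains (11.6% in C57 and 22.9% in MRL). In uninjured C57 tendons its level was 61.0, 58.0, 54.1 and 12.4 CPM in replicates 1 to 4, and in the injured ones 89.1, 94.2, 97.2 and 76.1 CPM (BI-181, BI-183, then BI-184 and last BI-185, the order kept for injured C57 values below). In uninjured MRL tendons it was 19.0, 28.6, 23.7 and 41.3 CPM, and in the injured ones 122, 101, 107 and 204 CPM (BI-270, BI-272, then BI-274 and last BI-275, likewise kept). Every injured library was therefore above every uninjured one, BI-275 was the highest of all, and each injured MRL library was above each injured C57 library. The ratio of means was 1.92 in C57 (46.4 ± 22.8 to 89.1 ± 9.32 CPM, SD, n = 4) and 4.75 in MRL (28.1 ± 9.61 to 133.6 ± 47.6 CPM). On the log2 scale the injury difference was 0.90 (SE 0.42) in C57 and 2.24 (SE 0.31) in MRL, which differed by 1.30 (SE 0.54). The C57 value was 0.58 without uninjured replicate 4 and 0.62 with the 3 libraries removed, and the MRL value was then 2.49.

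The larger Plaur difference in MRL had a lower starting level as well as a higher injured level. Uninjured MRL libraries averaged 0.607 times the uninjured C57 mean (log2 difference -0.73, SE 0.45), with ranges that overlapped through C57 uninjured replicate 4 alone, and injured MRL libraries were higher on average (log2 difference 0.55, SE 0.24), without overlap, as did 16.1% of all tested genes. From lowest to highest mean the groups were uninjured MRL, uninjured C57, injured C57 and injured MRL, and only the first pair of neighbours overlapped. With replicate 4 of each strain removed, Plaur ran from 19.0 to 28.6 CPM in uninjured MRL and from 54.1 to 61.0 CPM in uninjured C57 tendons, a log2 difference of -1.29, from a set that leaves out the MRL library most like C57. Without the 3 libraries that stood apart, the difference between the injury effects was 1.86, and without BI-275 it was 1.00. The Plaur values of C57 uninjured replicate 4 (12.4 CPM) and of BI-275 (204 CPM) were the extremes of all 16 libraries.

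Macrophage markers moved with Plaur after injury. The 8 markers (Adgre1, Cd68, Csf1r, Mrc1, Cd14, Lyz2, C1qa and Itgam), all detected in every library, summed to 692 to 1361 CPM in uninjured C57, 4048 to 7310 CPM in injured C57, 856 to 1413 CPM in uninjured MRL and 3424 to 6137 CPM in injured MRL tendons. In each strain 5 of 8 were called higher after injury and none lower, beside 1.07% of all tested genes called in either direction in C57 and 7.41% in MRL. As a percentage of that sum, Plaur ran from 1.80 to 5.11 in uninjured C57 tendons and from 1.26 to 2.20 in injured ones, and from 1.80 to 4.11 in uninjured MRL and 1.99 to 3.49 in injured MRL tendons. Without the 3 libraries that stood apart it ran from 4.09 to 5.11 in uninjured and 1.26 to 1.35 in injured C57 tendons, and from 1.80 to 2.22 in uninjured MRL tendons. The injured C57 sums reached higher than the injured MRL sums, whereas Plaur was higher in each injured MRL library. Neutrophil markers summed to 0.774 to 141 CPM in uninjured C57, 3.74 to 6.80 CPM in injured C57, 0.0656 to 2.69 CPM in uninjured MRL and 4.51 to 31.1 CPM in injured MRL tendons, with 2 of 8 passing the filter and none called in either strain. The part of cell content in the Plaur difference was not tested.

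**Figure D3:**
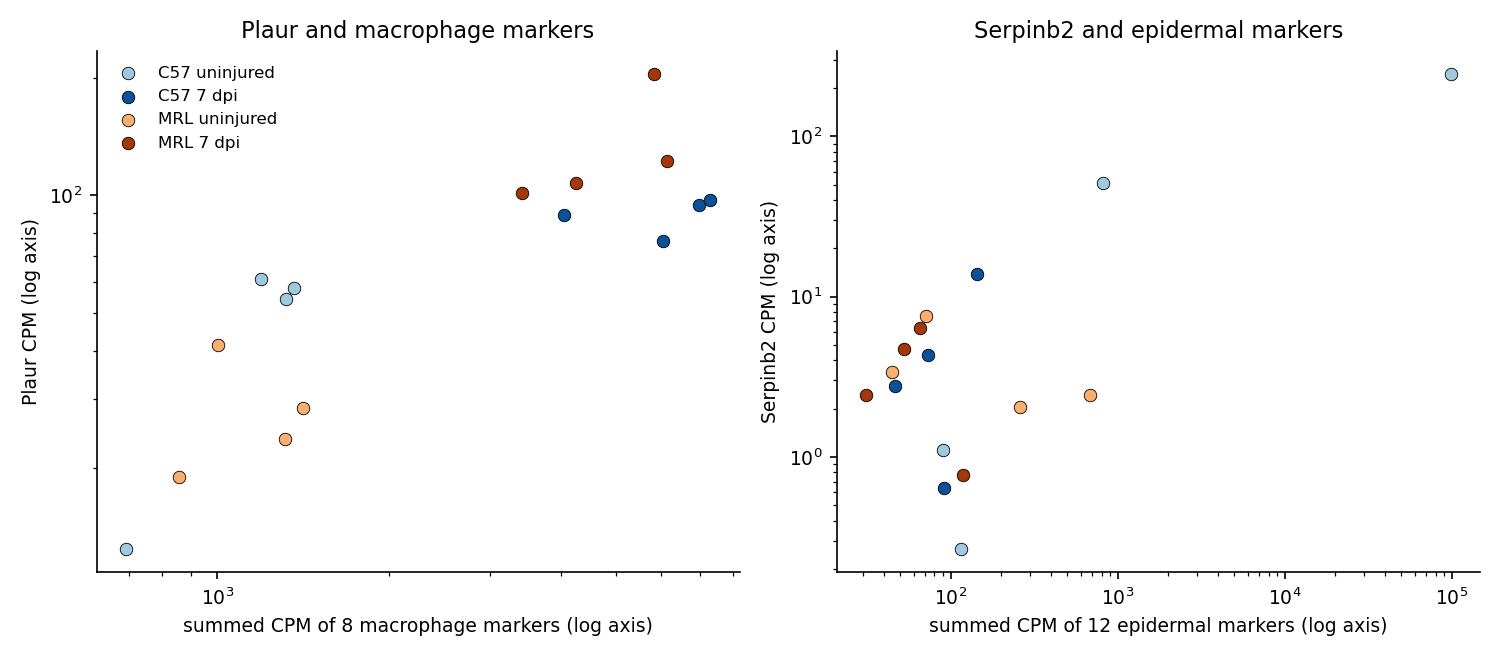
Left, Plaur against the summed CPM of 8 macrophage markers; right, Serpinb2 against the summed CPM of 12 epidermal markers; each point is 1 library coloured by group and all axes are logarithmic. Injured libraries lie to the upper right on the left, with MRL above C57, and C57 uninjured replicate 4 stands alone at 98400 CPM of epidermal markers and 243 CPM of Serpinb2 on the right.

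Plau, the urokinase gene, was near the limit of counting. Its counts ran from 0 to 77 per library, and the count of 0 in C57 uninjured replicate 1 allows up to 0.200 CPM by counting error alone. Uninjured C57 tendons had 0, 0.839, 0.230 and 1.43 CPM and injured ones 1.29, 1.79, 3.03 and 2.14 CPM. Uninjured MRL tendons had 0.197, 2.37, 2.02 and 0.632 CPM and injured ones 3.27, 1.40, 1.40 and 1.09 CPM. The groups overlapped in both strains, although 15 of the 16 pairs of an injured and an uninjured C57 library were higher in the injured one. The exception was BI-181 against uninjured replicate 4, and without this pair of libraries Plau ran from 0 to 0.839 CPM in uninjured and 1.79 to 3.03 CPM in injured C57 tendons. In that set 29.3% of all tested genes did not overlap in C57. By edgeR the log2 fold change was 1.64 (SE 1.06, adjusted p = 0.499) in C57 and 0.44 (SE 0.84, adjusted p = 0.772) in MRL. Without the libraries that stood apart the C57 value was 2.66, with an adjusted p of 0.211 by edgeR.

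Plat, the tissue-type activator, stood far above Plau per length, and its injury difference was below 0 in C57 and near 0 in MRL, neither called. Uninjured C57 tendons had 507, 499.6, 491 and 151 CPM and injured ones 181.5, 286, 364 and 338 CPM. The 3 uninjured C57 libraries other than replicate 4 were within 491 and 507 CPM, and every injured library was below them. Uninjured MRL tendons had 364, 366, 344 and 407 CPM and injured ones 449, 421.5, 400.0 and 169 CPM, so that BI-275 alone was below the uninjured range. The edgeR log2 fold change was -0.55 (SE 0.38, adjusted p = 0.539) in C57 and -0.06 (SE 0.26, adjusted p = 0.903) in MRL. Without C57 uninjured replicate 4 the C57 value was -0.82 (adjusted p = 0.0600 by edgeR). With the 3 libraries removed, the C57 value was -0.605 and its adjusted p by edgeR was 0.0213, a difference under the fold that a call required, and the MRL value was 0.01 (adjusted p = 0.991 by edgeR).

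Serpine2, the inhibitor of both activators, had higher means after injury in both strains, by a size that moved with the libraries kept. Its level was 1450, 1504, 1690 and 494 CPM in uninjured C57 tendons and 1441, 2604, 1608 and 3153 CPM in injured ones. In MRL tendons it was 1312, 1237, 1312 and 2052 CPM without injury and 1216, 2565, 3040 and 3013 CPM with it. Injured libraries fell into high and low values in each strain, with BI-181, BI-184 and BI-270 inside or below the uninjured range and the other 5 above it. By edgeR the log2 fold change was 0.72 in C57 (SE 0.41, adjusted p = 0.435) and 0.72 in MRL (SE 0.30, adjusted p = 0.142). Without C57 uninjured replicate 4 the C57 value was 0.45, and without replicate 4 of the uninjured MRL tendons the MRL value was 0.94 (adjusted p = 0.388 and 0.0919 by edgeR). Leaving out BI-270 gave 0.93 in MRL with an adjusted p of 0.0400 by edgeR, still under the fold required, and over the 14 alternatives the adjusted p in MRL ran from 0.0400 to 0.283.

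The balance of inhibitor to activator transcript can be read within a library as the ratio of Serpine2 to Plat. The log2 ratio of their CPM was 1.52 to 1.78 in uninjured C57 and 2.14 to 3.22 in injured C57 tendons, without overlap. Of single genes 11.6% did not overlap in C57, and no share was computed for ratios of genes. In MRL tendons it was 1.76 to 2.33 without injury and 1.44 to 4.16 with injury, which overlapped. Group means were 1.65 ± 0.119 (SD, n = 4) in uninjured and 2.89 ± 0.506 in injured C57 tendons, and 1.97 ± 0.254 in uninjured and 2.78 ± 1.12 in injured MRL tendons. BI-270 had the lowest ratio of all libraries and BI-275 the highest, both from injured MRL tendons. The ratio uses members chosen with these data known and was not tested.

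Serpinb2, the urokinase inhibitor of keratinocytes and macrophages, was high in 2 uninjured C57 libraries and low in the other 14. Uninjured C57 tendons had 0.267, 1.10, 51.1 and 243 CPM, against 2.76, 13.8, 4.32 and 0.641 CPM in injured ones. Uninjured MRL tendons had 2.43, 3.37, 7.61 and 2.05 CPM and injured ones 2.42, 0.770, 4.69 and 6.345 CPM. The libraries with 51.1 and 243 CPM were also the 2 with the most epidermal marker RNA, 814 and 98400 CPM on the 12 markers. MRL uninjured replicate 1, with 682 CPM of these markers, had 2.43 CPM of Serpinb2. By edgeR the C57 log2 fold change was -3.85 (SE 1.82, adjusted p = 0.362), and it was -1.76 (adjusted p = 0.615 by edgeR) without replicate 4. The MRL value was -0.12 (SE 0.70, adjusted p = 0.930 by edgeR). Of the 12 epidermal markers 7 passed the filter in C57 and in MRL tendons and none were called (1.07% and 7.41% of all tested genes were). The part of skin RNA in the Serpinb2 level was not tested.

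Serpinf1, the vessel-restraining serpin, had lower means after injury in both strains. Uninjured C57 tendons had 1821, 1566, 1559 and 1353 CPM and injured ones 853, 1339, 709 and 1356 CPM. Uninjured MRL tendons had 3344, 3177, 2294 and 1269 CPM and injured ones 2292, 1176, 1657 and 900.2 CPM. Only 1 of the 16 C57 pairs and 2 of the 16 MRL pairs were higher in the injured library, and the overlap in C57 came from BI-185 lying 3 CPM above replicate 4. All 3 of those pairs hold a replicate 4. Without these libraries and BI-181 the groups did not overlap in either strain, at 1559 against 1356 CPM for the nearest C57 pair and 2294 against 2292 CPM for the nearest MRL pair, beside 13.2% of all tested genes with no overlap in either strain in that set (29.3% in C57 and 29.2% in MRL). By edgeR the log2 fold change was -0.62 (SE 0.26, unadjusted p = 0.0402, adjusted p = 0.303) in C57 and -0.76 (SE 0.34, unadjusted p = 0.0498, adjusted p = 0.176) in MRL. All 14 alternatives kept the lower direction in each strain. Endothelial markers summed to 19.6 to 110 CPM in uninjured and 124 to 227 CPM in injured C57 tendons, but to 18.2 to 92.2 CPM in uninjured and 4.93 to 36.2 CPM in injured MRL tendons. In either strain 0 of 8 were called, beside 1.07% of all tested genes in C57 and 7.41% in MRL.

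Serping1, the C1 inhibitor gene, lay on opposite sides of its uninjured level in the 2 strains. Uninjured C57 tendons had 744, 754, 687 and 430 CPM and injured ones 1131, 1180, 641 and 2203 CPM. Uninjured MRL tendons had 953, 1050, 1205 and 578 CPM and injured ones 891, 497, 802 and 285 CPM. Higher values were seen in 13 of 16 C57 pairs and in 2 of 16 MRL pairs of an injured with an uninjured library. Both MRL exceptions involved uninjured replicate 4, and without it (a set in which 29.2% of all tested genes did not overlap) the MRL groups did not overlap, at 953 to 1205 CPM uninjured and 285 to 891 CPM injured. The C57 groups still overlapped without the libraries that stood apart. The edgeR log2 fold change was 0.93 (SE 0.37, unadjusted p = 0.0331, adjusted p = 0.285) in C57 and -0.63 (SE 0.33, unadjusted p = 0.0858, adjusted p = 0.243) in MRL. The 3 C57 libraries above the rest were BI-181, BI-183 and BI-185, and the lowest MRL value was that of BI-275. With the 3 libraries removed the values were 0.87 in C57 and -0.79 in MRL (adjusted p = 0.220 and 0.183 by edgeR).

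**Figure D4:**
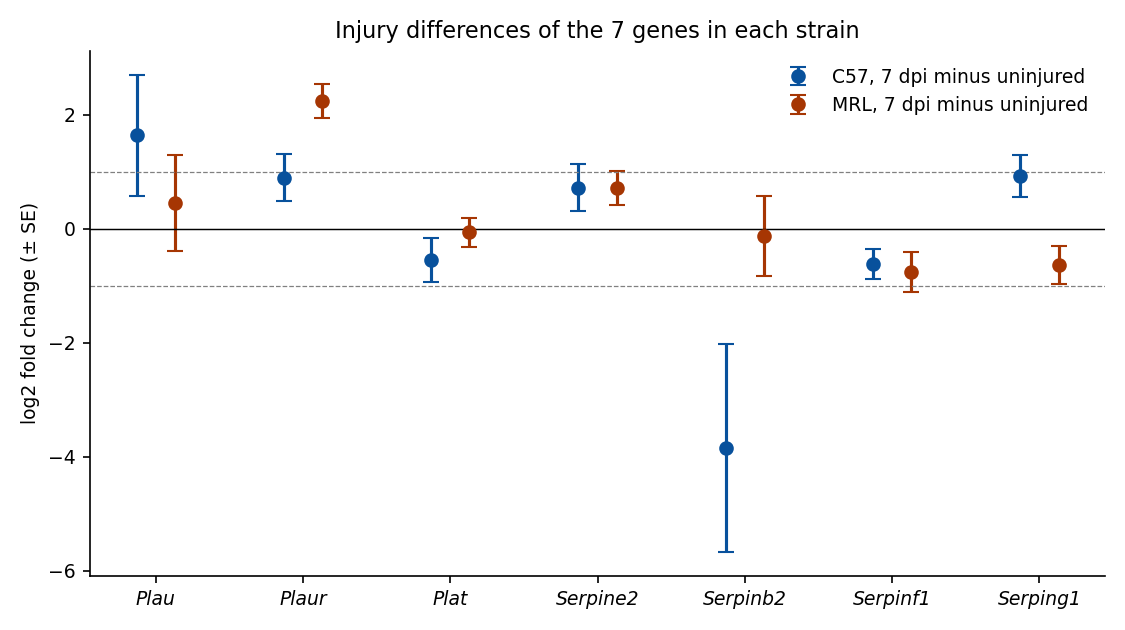
Log2 fold change of injured against uninjured tendon (± SE) for each gene in C57 (blue) and MRL (brown); dashed lines mark the fold of 2 that a call required. Serpine2 was above 0 and Serpinf1 below 0 in both strains, Serping1 was at 0.93 in C57 and -0.63 in MRL, and Plaur is shown without a test.

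Whether the injury differences themselves differed between strains was asked with the interaction in a fit of all 16 libraries. None of the 6 tested genes were called, beside 0% of 15947 genes (edgeR quasi-likelihood), with 1939 genes at an unadjusted p under 0.05 and 214 called by DESeq2, none of them among the 6. Serping1 had the smallest p of the 6, with a log2 difference of differences of -1.61 (SE 0.53, unadjusted p = 0.00799, adjusted p = 0.339 by edgeR), and was the 1 of 6 under 0.05. Its direction held in all 21 alternatives, from -1.83 to -1.22, with adjusted p from 0.110 to 0.509. Serpinb2 had 3.65 (SE 2.00, adjusted p = 0.488 by edgeR) and 1.15 without the libraries that stood apart. Serpine2 had -0.05 (SE 0.53), Serpinf1 -0.19 (SE 0.45), Plat 0.44 (SE 0.49) and Plau -1.26 (SE 1.40).

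Between uninjured tendons of the 2 strains, 0 of 6 tested genes were called, beside 0% of 14055 genes by edgeR, with 1106 at an unadjusted p under 0.05 and 102 called by DESeq2. Serpinf1 averaged 2521 ± 953.5 CPM (SD, n = 4) in MRL and 1575 ± 191.5 CPM in C57 tendons, a ratio of 1.60 (log2 difference 0.66, SE 0.29, unadjusted p = 0.0490, adjusted p = 0.631 by edgeR). The other gene under an unadjusted 0.05 was Serpinb2, at -4.30 (SE 1.79, adjusted p = 0.625 by edgeR), which was -2.18 without C57 uninjured replicate 4. Over all alternatives the Serpinb2 value ran from -4.80 to -1.19, past the fold of 2 in each. Removing replicate 4 of both strains left 3 libraries a group and gave log2 differences of 0.82 for Serpinf1, 0.54 for Serping1 and -0.49 for Plat, each under the fold of 2. There Plau, near the limit of counting, was past that fold at 2.06, and Serpine2 was at -0.28. Since MRL replicate 4 stood apart by its likeness to the C57 libraries, leaving it out widens the strain difference by construction, and no p is given for that set. In that set Plat ran from 344 to 366 CPM in MRL against 491 to 507 CPM in C57 tendons.

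Between injured tendons, 0 of 6 tested genes were called by edgeR or DESeq2, against 3.43% of 14626 genes by edgeR. Serping1 was the 1 gene of 6 under an unadjusted p of 0.05, beside 21.2% of all genes, at 619 ± 279 CPM in MRL and 1288 ± 656.5 CPM in C57 tendons (log2 difference -1.10, SE 0.43, unadjusted p = 0.0276, adjusted p = 0.178 by edgeR). Of the endothelial markers 2 of 8, and of the macrophage markers 2 of 8, were called lower in injured MRL tendons, and 1 of 8 tenocyte markers higher. Serpinf1 (0.46, SE 0.33), Plat (0.27, SE 0.32), Serpine2 (0.13, SE 0.35), Plau (-0.23, SE 0.60) and Serpinb2 (-0.62, SE 0.87) had adjusted p from 0.450 to 0.867 by edgeR.

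The other genes of the plasmin system were described from a list of 23. Several members had few or no counts: Plg, which encodes plasminogen, was at 0 counts in 15 of 16 libraries, and Fga, Fgb, Fgg (the fibrinogen chains), F12 and Serpina5 were at 0 in all, which allows at most 0.128 to 0.237 CPM per library. Vtn, which encodes vitronectin, reached 26.5 CPM in BI-181 and 11.4 CPM in BI-185. In C57 tendons 13 of 23 passed the filter and 0 were called by edgeR (1.07% of all tested genes), with 4 at an unadjusted p under 0.05 (15.3% of all) and 2 called by DESeq2 (F13a1 and Thbd; 5.32% of all). In MRL tendons 12 passed, 1 was called higher and 1 lower, beside 7.41% of all tested genes called in either direction, with 7 at an unadjusted p under 0.05 (28.3% of all) and 3 called by DESeq2 (11% of all). The median log2 fold change of those that passed was 0.19 in C57 and 0.35 in MRL, beside -0.05 and -0.03 over all tested genes.

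Thbd, which encodes thrombomodulin, the thrombin receptor that turns coagulation toward anticoagulation, fell in MRL tendons. It stood at 715, 879.5, 773 and 810 CPM without injury and 260.5, 135, 292 and 59.4 CPM with it. No libraries overlapped, as was so for 22.9% of all tested genes. By edgeR the log2 fold change was -2.11 (SE 0.40, adjusted p = 0.00931). In C57 tendons Thbd was at 680, 919, 595 and 397 CPM without injury and 159, 165, 315 and 260 CPM with it. These again did not overlap, as for 11.6% of all tested genes in C57 and 4.58% in both strains. Its log2 fold change of -1.58 (SE 0.32) missed the threshold with an adjusted p of 0.0567 by edgeR. Without uninjured replicate 4 the C57 value was -1.75 and passed (adjusted p = 0.00918 by edgeR), and without BI-181 it was -1.42 (adjusted p = 0.135). The strain difference in this injury effect was -0.59 (SE 0.54, adjusted p = 0.718 by edgeR).

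Vldlr, which encodes an endocytic receptor that clears complexes of proteases and serpins, rose in MRL tendons. Its level was 12.6, 4.38, 16.2 and 8.53 CPM without injury and 18.2, 51.1, 20.5 and 34.0 CPM with it. No libraries overlapped, as was so for 22.9% of all tested genes. The edgeR log2 fold change was 1.56 (SE 0.44, adjusted p = 0.0468), a call lost when any of the 4 uninjured replicates, BI-272 or BI-275 was left out, although the log2 fold change was still 1.5 (SE 0.50, adjusted p = 0.103 by edgeR) without MRL uninjured replicate 4. In C57 tendons Vldlr ran from 4.87 to 7.68 CPM without injury and from 22.6 to 32.8 CPM with it in 3 libraries, while the muscle-rich BI-181 had 242 CPM (log2 fold change 3.72, SE 0.86, adjusted p = 0.0823 by edgeR). Without BI-181 the C57 value was 2.10 (SE 0.30) and passed, with an adjusted p of 0.0318 by edgeR. The injury difference was lower in MRL than in C57 with all libraries kept, but not past the threshold (interaction -2.18 on the log2 scale, SE 0.96, unadjusted p = 0.0387, adjusted p = 0.394 by edgeR). With the 3 libraries that stood apart removed, the injury differences were nearer each other, at 2.26 (SE 0.28) in C57 and 1.5 (SE 0.50) in MRL.

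There were 3 further list genes, picked after their values were seen, that were higher in injured MRL tendons without reaching a call. Plgrkt, a plasminogen receptor, had a log2 fold change of 0.67 (SE 0.15, adjusted p = 0.0185 by edgeR) and S100a10, which binds plasminogen in a complex with annexin, one of 0.84 (SE 0.23, adjusted p = 0.0425 by edgeR). Anxa2, the annexin of that complex, had 0.63 (SE 0.18, adjusted p = 0.0508 by edgeR) and, like the other 2, no overlap between injured and uninjured MRL libraries, as was so for 22.9% of all tested genes. Without MRL uninjured replicate 4 the adjusted p by edgeR was 0.0266, 0.0868 and 0.0939 in that order. In C57 tendons the values were 0.27 (SE 0.21), 0.19 (SE 0.30) and 0.06 (SE 0.26), with overlapping groups. The interaction for Plgrkt, S100a10 and Anxa2 had adjusted p of 0.605, 0.573 and 0.531 by edgeR, so that a strain difference was not shown. Other list genes short of a call were lower in injured MRL tendons. These were Lrp1 at -0.69 (SE 0.23, adjusted p = 0.0802 by edgeR) and Pdgfd at -1.23 (SE 0.41, adjusted p = 0.0798 by edgeR). The MRL groups did not overlap for Lrp1 and overlapped for Pdgfd.

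**Figure D5:**
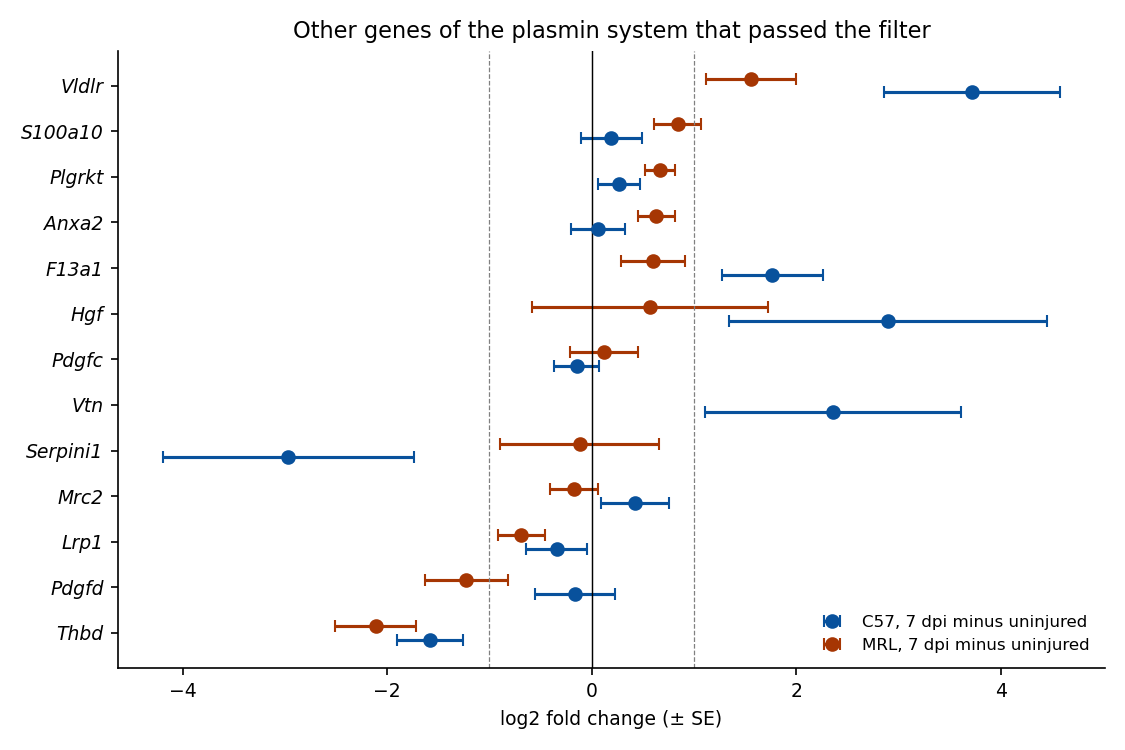
Log2 fold change of injured against uninjured tendon (± SE) in C57 (blue) and MRL (brown) for the genes of the 23-gene plasmin system list that passed the count filter; dashed lines mark a fold of 2. Thbd lies lowest in MRL at -2.11, Vldlr highest in MRL at 1.56, and Vtn passed the filter in C57 alone.

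F13a1 encodes the subunit of factor XIII that cross-links fibrin and is made by macrophages. It stood at 164, 334, 202 and 129 CPM in uninjured and 355, 463.5, 1519 and 592 CPM in injured C57 tendons. These did not overlap, as was so for 11.6% of all tested genes. Its log2 fold change was 1.77 (SE 0.49, adjusted p = 0.146 by edgeR). In MRL tendons the log2 fold change was 0.60 (SE 0.31, adjusted p = 0.232 by edgeR) and the groups overlapped. Between strains 0 of 13 list genes were called by edgeR in the interaction (1 at an unadjusted p under 0.05, 0 by DESeq2, beside 12.2% and 1.25% of all genes), 0 of 13 in uninjured tendons (2 and 0, beside 7.87% and 0.637%) and 0 of 13 in injured tendons (6 and 1, beside 21.2% and 8.54%). Pdgfc, a growth factor that plasmin activates, was higher in injured MRL than in injured C57 tendons by 0.97 on the log2 scale (SE 0.21, adjusted p = 0.0311 by edgeR), just under the fold of 2. Its mean was also higher in uninjured MRL tendons (log2 difference 0.76, SE 0.36, adjusted p = 0.638 by edgeR). The injury differences of Pdgfc were -0.15 (SE 0.22) in C57 and 0.12 (SE 0.34) in MRL.

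Across the 16 libraries the patterns most like that of each gene were found among 15940 genes by Pearson's r of log2 CPM. This likeness is a description, since the libraries share 4 groups and 3 of them stood apart. Plaur was nearest to Skap2 (r = 0.965), Ccl2 (0.957) and Il2rg (0.954), Plat to Rflnb (0.939), Spryd3 (0.929) and Zcchc18 (0.929), and Serpine2 to Prg4 (0.893), Naa60 (0.881) and Ddah1 (0.881). Serpinf1 was nearest to Nfia (0.924), 4933406I18Rik (0.912) and Ift81 (0.906), and Serping1 to Selenop (0.914), Timd4 (0.878) and Tmod2 (0.866). Serpinb2 (Epn3 at 0.817, Lrrc8e at 0.814 and Aldh3b2 at 0.810) and Plau (Foxm1 at 0.814, Nars at 0.805 and Tlr13 at 0.803) had no gene as close. Among the 7 themselves the highest r was 0.725, between Plaur and Serpine2, and the lowest was -0.54, between Plaur and Serpinf1.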

How the data were processed

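Bulk RNA-seq was analysed for 16 mouse flexor tendon libraries. The authors trimmed single-end 100 nt reads with Trimmomatic 0.36, aligned them to GRCm38.p5 with STAR 2.5.2b and counted them per gene with featureCounts (Subread 1.5.0p3), and deposited raw counts; the gene annotation and strand setting are not given in the sources used here, and without strand a gene and an antisense partner cannot be told apart. The labels describe TruSeq libraries from 100 ng RNA and the study's methods a pre-amplified preparation from 1 ng, and which applied is not settled here. The study's own DESeq2 1.14.1 results were not used.

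Groups came from the labels. The table was fitted whole with edgeR 4.0.16 (R 4.3.3): filterByExpr, TMM factors, robust quasi-likelihood tests, Benjamini-Hochberg adjustment, and a call at an adjusted p under 0.05 with a log2 fold change over 1 (the interaction by adjusted p alone). Pairwise comparisons used their own 8 libraries and the interaction all 16. An SE is the log2 fold change divided by the square root of its F. The methods give 4 animals per group, so n counts animals. Depth was 12552424 to 23741648 counts, and floors of 3 counts cover counting error only. Alternatives were DESeq2 1.42.0, upper-quartile and total-count scaling, no filter, adjusted p alone, a fit of all libraries, a replicate block, removal of 3 libraries and of each library in turn. Scripts were tested on simulated data. Genes named are the 7, those of the plasmin system list called in any comparison, and the 3 most alike per gene. Plg, Fga, Fgb, Fgg, F12, Serpina5 and Vtn are named for their counts. Plgrkt, S100a10, Anxa2, Lrp1, F13a1, Pdgfc and Pdgfd were added after their values were seen. The genes and lists (plasmin system; tenocyte, macrophage, neutrophil, endothelial, epidermal and skeletal muscle markers) were chosen with earlier results of these data known. Some other genes of the system are not reported here.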

Additional observations from a re-analysis of the deposited data

Results flagged for a closer look

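Of the 28 sets of 4 libraries (7 genes in 4 groups), 4 held a library whose gap to its nearest neighbour was a larger part of the group's range than Dixon's critical value, and chance alone gives about 1 in 20. In uninjured C57 tendons the lowest value was replicate 4 for Plaur (12.4 CPM) and for Plat (151 CPM), the library with 98400 CPM of epidermal markers. In uninjured MRL tendons Serpine2 was highest in replicate 4 (2050 CPM), the library closer to uninjured C57 libraries than to its own group. In injured MRL tendons Plau was highest in BI-270 (3.27 CPM, 77 counts). The part of cell content in these values was not tested.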

How the results depend on the processing

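None of the 6 tested genes were called in any comparison under any alternative. Of 468 alternative fits of those genes, 447 kept the sign of the log2 fold change and 21 reversed it, and the cause was not tested. With 3 libraries removed Plat in MRL injury was 0.00702, and Serpine2 was 0.27 in the interaction, -0.28 in uninjured and -0.0209 in injured tendons (and -0.0114 there with total counts). Leaving out single libraries gave ranges of -0.0326 to 0.89 for Plau, -0.20 to 0.17 for Plat and -0.58 to 0.41 for Serpinb2 in MRL injury, and of -0.22 to 0.22 for Serpine2 in the interaction and -0.068 to 0.36 in uninjured tendons. In injured tendons the ranges were -0.63 to 0.00699 for Plau, -0.0209 to 0.42 for Serpine2 and -1.02 to 0.43 for Serpinb2.

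The replicate numbers did not pair the samples: deviations of same-numbered uninjured libraries correlated at -0.262 to 0.0158. A replicate block in the uninjured comparison called 0 genes and gave Plau 1.61, Plat -0.04, Serpine2 0.26, Serpinb2 -1.19, Serpinf1 0.58 and Serping1 0.50, with adjusted p from 0.850 to 0.986 by edgeR. Injured libraries carry no replicate numbers in the labels.

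Plasmin list counts differed by setting, here with the share of all genes called. In C57 injury (0 called, 1.07%) DESeq2 called 2 (5.32%), the fit of all 16 libraries 3 (2.30%) and removal of 3 libraries 2 (5.97%). In MRL injury (2 called, 7.41%) counts ran from 1 to 4, with Thbd in each (3.63% to 11.1%). With 3 libraries removed 2 were called in uninjured tendons (Pdgfc and Pdgfd; 3.48%), a set that leaves out the MRL library most like C57.

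Over all genes, counts in C57 injury (155) were 903 with DESeq2, 367 in the fit of all 16 libraries, 867 with 3 libraries removed and 10 to 750 without single libraries. MRL injury (1057) gave 1819 with DESeq2 and 689 to 1260 without single libraries. Injured tendons (502) gave 1490 with DESeq2, 227 in the fit of all 16 libraries and 231 to 481 without single libraries. Uninjured tendons (0) gave 102 with DESeq2, 497 with 3 libraries removed and 0 to 3 without single libraries. Among the 7 genes Plau had the lowest mean CPM in every group, at 0 to 77 counts per library, so depth limits it.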
